A study of Caenorhabditis elegans with 2 samples.

Results

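The homeodomain protein CEH-82 of Caenorhabditis elegans was profiled by chromatin immunoprecipitation and sequencing (ChIP-seq), and 421 of the 2346 peaks lay on autosomes between protein-coding genes and away from their starts. A member was a peak of the deposited optimal list whose summit lay on one of the 5 autosomes and outside every protein-coding gene body. The summit also had to lie more than 500 bp from every protein-coding gene start and more than 100 bp from every tRNA, snoRNA or snRNA gene of the Ensembl release 115 annotation. The members made up 17.9% of all optimal peaks and 22.0% of the 1915 autosomal ones. All samples came from whole first-stage (L1) larvae of strain OP212, genotype unc-119(ed3) III; ddEx58, as a pool of males and females, in which F45C12.2 (ceh-82) carried GFP-FLAG at the C-terminus. The 2 biological replicates formed 1 group, and chromatin was broken by sonication. The labels name an antibody against ceh-82 although the tag is GFP-FLAG, and they speak of an insertion although the strain name carries an extrachromosomal array. Which epitope was recognised and which copy was tagged are therefore unclear, and a profile from an untagged strain was not analysed here. Read depth is unknown. With 1 group there was no test over samples. Shares are given with 95% Wilson intervals, which cover counting error only, and beside the values from each replicate.

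Homeodomain proteins are transcription factors that contact DNA through a conserved helix, and many of them favour sites with a TAAT core. In C. elegans most intergenic space is short, so regulatory elements usually lie close to gene starts, while some genes, among them developmental regulators, have enhancers at a distance. Many worm transcripts are trans-spliced to a leader sequence, so the annotated start of a gene can lie downstream of the place where transcription begins. Autosomes have a gene-dense centre, where recombination is rare, between arms that recombine more and hold more repeats.

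The sequences around 8 of the 9 strongest members show what the summits look like. T04C4.3, with the most copies of an 8-base element, and H10E21.5, the strongest member with 2 copies, follow and were picked after their values were seen. Each runs from 50 bp before to 50 bp after the summit on the + strand of WBcel235 (ce11), read 5′ to 3′ from RefSeq's copy of that assembly. Capitals mark GAGAGA and AGACGCAG on either strand, which read TCTCTC and CTGCGTCT on the other strand, and both elements can share bases, as in H10E21.5. The names are those of the gene with the nearest start. They lie at chrIII:8043929-8044029, chrIII:9765573-9765673, chrIII:3801469-3801569, chrV:1151445-1151545, chrII:2974037-2974137, chrV:6227685-6227785, chrV:10466719-10466819, chrV:20778382-20778482, chrIV:2219584-2219684 and chrIII:25686-25786, in the order shown.
K12H4.5: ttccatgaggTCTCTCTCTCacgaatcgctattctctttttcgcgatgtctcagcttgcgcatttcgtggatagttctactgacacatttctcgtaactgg
cbp-1: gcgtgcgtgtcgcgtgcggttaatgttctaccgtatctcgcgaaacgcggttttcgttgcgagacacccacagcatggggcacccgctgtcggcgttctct
mtm-3: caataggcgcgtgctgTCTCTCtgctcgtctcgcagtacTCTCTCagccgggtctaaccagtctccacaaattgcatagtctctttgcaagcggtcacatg
cmd-1: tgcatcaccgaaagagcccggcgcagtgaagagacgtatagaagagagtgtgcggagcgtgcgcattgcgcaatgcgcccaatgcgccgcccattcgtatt
nhr-88: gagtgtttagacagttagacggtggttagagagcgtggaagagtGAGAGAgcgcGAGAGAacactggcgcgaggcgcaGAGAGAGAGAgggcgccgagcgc
W06H8.6: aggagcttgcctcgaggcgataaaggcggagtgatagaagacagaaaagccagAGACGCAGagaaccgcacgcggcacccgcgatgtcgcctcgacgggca
egl-9: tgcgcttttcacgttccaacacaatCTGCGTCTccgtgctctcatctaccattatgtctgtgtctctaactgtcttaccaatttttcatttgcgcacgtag
hif-1: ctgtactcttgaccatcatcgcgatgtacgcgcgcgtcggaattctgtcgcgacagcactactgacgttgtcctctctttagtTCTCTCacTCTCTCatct
T04C4.3: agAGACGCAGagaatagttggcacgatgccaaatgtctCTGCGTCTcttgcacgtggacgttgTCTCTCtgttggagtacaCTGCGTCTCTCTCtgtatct
H10E21.5: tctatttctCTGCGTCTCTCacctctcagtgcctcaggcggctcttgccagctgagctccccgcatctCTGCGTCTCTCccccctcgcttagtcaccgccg
Of these windows, K12H4.5 held 3 overlapping copies of GAGAGA in a run of 10 bases of alternating G and A, and nhr-88 held 5 copies. The windows of W06H8.6 and egl-9 held the 8-base element once and no GAGAGA. The windows of cbp-1 and cmd-1 held neither, with GC contents of 60.4% and 58.4%. T04C4.3 was the member with the most copies of the 8-base element, 3, and it also held 3 copies of GAGAGA. A match is a description of the letters at a summit and does not show that a protein bound there.

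The strongest members lay mostly upstream of genes and were found in both replicates. The signal is the authors' own value for each peak in the optimal list and its scale is undefined in the labels. It is therefore given with 2 ranks, those of the peaks that overlap the member in the relaxed list of each replicate. The strongest member, with its summit at III:8043979, had a signal of 307.9 and ranked 34 in replicate 1 and 27 in replicate 2. It lay 508 bp upstream of K12H4.5, between divergent genes. The next, at I:17023, had a signal of 229.7 and ranks of 55 and 80, and lay 186 bp past the end of nlp-40, an intestinal neuropeptide gene whose product drives the defecation motor program. A member 886 bp upstream of cbp-1, which encodes the CBP/p300 histone acetyltransferase, had a signal of 222.2 and ranks of 75 and 84. The member 1052 bp upstream of mtm-3, a myotubularin lipid phosphatase gene, had a signal of 219.7 and ranked 186 and 50. These ranks put all 4 within the strongest 200 peaks of each replicate.

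Members at longer distances were also among the strongest. The summit 4776 bp upstream of cmd-1, the calmodulin gene, had a signal of 207.7 with ranks of 81 and 113, and it lay at the non-coding gene linc-128. A summit 2552 bp upstream of nhr-88, a nuclear hormone receptor gene, had a signal of 200.4, with ranks of 232 and 57. At III:12583682 a summit lay 8281 bp upstream of aakg-1, which encodes a gamma subunit of AMP-activated protein kinase, with a signal of 179.2 and ranks of 104 and 172. The oxygen-response genes egl-9 and hif-1 each had a member. EGL-9 is the prolyl hydroxylase that marks the transcription factor HIF-1 for degradation. The egl-9 summit lay 1748 bp upstream, with a signal of 188.5 and ranks of 147 and 96, and the hif-1 summit 1975 bp upstream, with a signal of 187.4 and ranks of 125 and 90. Among the 20 strongest members, signals ran from 156.1 to 307.9 and distances to the nearest start from 508 to 8281 bp. Of these 20, 19 lay upstream of the nearest start, against 85.3% of all 421 members. GAGAGA or the 8-base element was present in 16 of them, against 60.6% of all members and 36.6% of all optimal peaks. No rank among the 20 was worse than 324 in replicate 1 or 216 in replicate 2. The other members of that group lay nearest W06H8.6, F58D5.5, R06C1.4, tag-340, F54F12.1, which was nearest to 2 of them, Y59A8B.24, T04C4.3, casc-3, F02E9.5 and T16A9.3.

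As a class the members were weaker than peaks at gene starts and repeated less often between replicates than the list as a whole. Their median signal was 51.0, with quartiles of 39.4 and 72.8 and a range from 30.9 to 307.9, against 63.1 for the 1101 autosomal peaks at gene starts and 46.8 for the 274 in gene bodies. The median width was 280 bp in each of these classes. Only 6 members were among the 100 strongest optimal peaks, and 176 (41.8%) were in the stronger part of the list when it was divided at its median. To compare replicates, the strongest 2346 peaks of each replicate's relaxed list were taken, as many as the optimal list holds. Of the members, 289 (68.6%, 95% CI 64.1 to 72.9%) overlapped such a peak in both replicates, against 75.1% of all optimal peaks, 80.9% of autosomal peaks at gene starts and 66.1% of those in gene bodies. A further 50 overlapped one in replicate 1 only, 74 in replicate 2 only and 8 in neither. Signal and the share found in both replicates are not independent, because the optimal list was derived from both replicates. All 100 of the 100 strongest members were found in both replicates, and 20 of the 100 weakest. The part of signal in the difference from other classes was not tested. The whole relaxed lists held a peak at 418 members in both replicates. The median rank was 1266 in replicate 1 and 1303.5 in replicate 2, and across members the ranks had a Spearman correlation of 0.57, given as a description because all points come from the same 2 samples and the optimal list was itself chosen for repeated ranks.

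**Figure D1:**
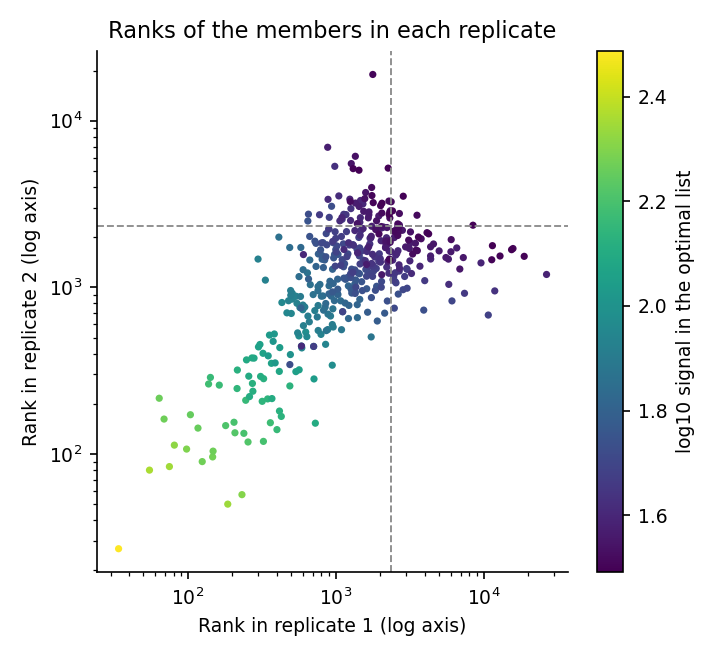
Rank of the peak overlapping each member in replicate 1 (horizontal, log axis) and replicate 2 (vertical, log axis) for the 418 members matched in both relaxed lists, coloured by log10 of the signal in the optimal list. Dashed lines mark rank 2346; the strongest members lie at low ranks in both replicates, and the weak ones spread past the lines.

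The rule gave a class of similar size from either replicate alone, although 289 of the 421 members overlapped a strongest peak of both replicates. Applied to the strongest 2346 peaks of replicate 1 it took 410, and to those of replicate 2 it took 431, which were 21.6% and 22.7% of the autosomal peaks in those lists. These lists give the replicate values below. Positions are compared with those of the eligible sequence, the 23.1 Mb of autosomal sequence that meets the same rule, and with 3992 background peaks, which are pooled relaxed peaks under the same rule that overlap no optimal peak.

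Summits lay nearer to gene starts than the sequence open to them. The median distance to the nearest protein-coding start was 1555 bp, with quartiles of 932 and 2862 bp and a range from 504 to 11502 bp. The replicate medians were 1595 and 1523 bp, against 2170 bp for background peaks and 2256 bp for the eligible sequence, a gap far wider than that between replicates. Of the members, 119 (28.3%) lay within 1000 bp, 135 (32.1%) between 1000 and 2000 bp, 111 (26.4%) between 2000 and 4000 bp, and 56 (13.3%) farther out. The eligible sequence divided as 18.3%, 26.3%, 29.8% and 25.5% over the same bins. The median distance to the nearest gene end was 2549 bp, with quartiles of 1002 and 5218 bp, close to the 2663 bp of the eligible sequence and below the replicate values of 2945 and 2779 bp. A start was closer than an end for 255 members (60.6%, 95% CI 55.8 to 65.1%), against 58.9% of background peaks and 53.4% of the eligible sequence.

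The side of the nearest gene differed too. The summit lay upstream of the nearest start for 359 members (85.3%, 95% CI 81.6 to 88.3%), with replicate values of 87.1% and 86.5%, against 78.4% of background peaks and 71.1% of the eligible sequence. The 62 members on the downstream side necessarily lay past the end of the nearest gene. Their median signal was 46.2 against 51.5 for upstream members, and 59.7% of them were found in both replicates against 70.2%. The bin from 500 to 1000 bp upstream alone held 27.8% of members and 16.5% of the eligible sequence, and on the downstream side the same distances held 0.475% and 1.87%.

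**Figure D2:**
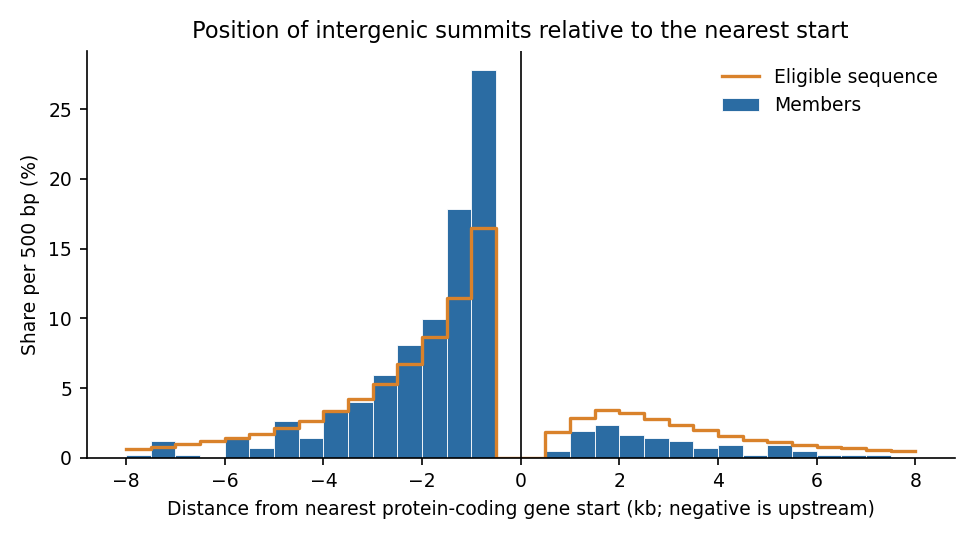
Share of members (bars) and of the eligible sequence (line) per 500 bp of distance from the nearest protein-coding gene start, with upstream distances negative. No sequence within 500 bp was eligible; 9 members and 6.41% of the eligible sequence lie beyond 8000 bp, outside the axis. Members exceed the eligible sequence most in the upstream bins nearest the start.

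At the limit of the rule, signals varied on both sides. The members closest to a start were 504 bp from ubql-1, a ubiquilin gene, with a signal of 114.3, 504 bp from mrps-18C, a mitochondrial ribosomal protein gene, with 34.3, and 506 bp from acl-2, with 38.4. Just inside the limit, and so not members, were summits 497 bp from the kinetochore gene knl-2, with a signal of 41.0, 494 bp from smo-1, which encodes SUMO, with 57.6, and 490 bp from unc-85, a histone chaperone gene, with 36.6.

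Members were rare between convergent genes. Genes on both sides of an interval can point away from each other (divergent), the same way (tandem) or towards each other (convergent), and these held 149 (35.4%), 257 (61.0%) and 15 (3.56%, 95% CI 2.17 to 5.79%) members. Convergent intervals made up 14.6% of the eligible sequence and held 8.84% of background peaks, while the replicate lists gave 2.93% and 3.25%. Divergent intervals made up 31.0% of the eligible sequence, and the 95% CI of the members' share, 31.0 to 40.1%, only just reached that value. The replicate lists gave 37.6% (33.0 to 42.3%) and 38.5% (34.0 to 43.2%), and background peaks 35.4%. Tandem intervals made up 54.3% of the eligible sequence, below the members' 95% CI of 56.3 to 65.6%. For these the replicate lists gave 59.5% (54.7 to 64.2%) and 58.2% (53.5 to 62.8%), and background peaks 55.7%. The median interval with a member was 4991 bp long, against 6375 bp for the intervals around eligible positions. Within tandem intervals, where a start and an end face the same space, 80.9% of members had the nearest start downstream of them, so that they lay upstream of it, against 73.1% of eligible tandem sequence.

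**Figure D3:**
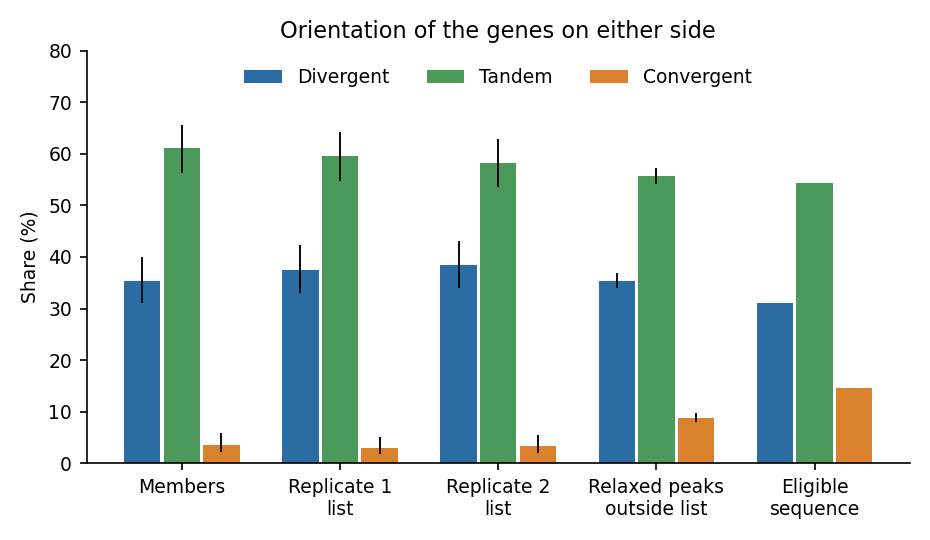
Share of members, of each replicate's list, of relaxed peaks outside the optimal list and of the eligible sequence (vertical, %) in intervals between divergent, tandem and convergent genes. Error bars are 95% Wilson intervals, and the eligible sequence has none; convergent intervals hold 3.56% of members and 14.6% of the eligible sequence.

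The 5 members farthest from any start all lay between convergent genes. One at III:8865626 was 11502 bp past the start of K01F9.2, and one at IV:5561650 was 10516 bp past that of ari-2, with signals of 44.5 and 32.8. The other 3 lay 540 bp apart from first to last, in the interval of 17966 bp between irld-55 and Y37A1B.7, at IV:14033335, IV:14033556 and IV:14033875, with signals of 87.7, 40.7 and 49.2. The first and second of these overlapped the same replicate peaks, ranked 586 and 444, so they are not separate observations in the replicates. In all, 10 members shared a replicate 1 peak with another member and 6 shared a replicate 2 peak.

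MicroRNA genes, which have no protein-coding start and are not part of the rule, lay close to 4 of those 5 summits. The III:8865626 summit was 259 bp upstream of mir-80, a member of the family related to Drosophila bantam, the IV:5561650 summit 375 bp upstream of mir-228, and the summits at IV:14033556 and IV:14033875 were 452 and 133 bp upstream of mir-52. A further member, at IV:11027848, lay 157 bp upstream of mir-53, with a signal of 47.4, and one at I:7954873 lay 53 bp past the start of mir-8209, with a signal of 47.1. The genes mir-52 and mir-53 belong to the same worm family, named after mir-51. Replicate ranks were uneven for some of these. The mir-80 summit ranked 1131 and 2744, the mir-228 summit 2623 and 2048, and the mir-53 summit 2460 and 1156. None of these 3 was within the strongest 2346 of both replicates, while both mir-52 summits and the mir-8209 summit were. For the IV:14033556 summit this rests on the replicate peaks that it shared with the stronger summit at IV:14033335. In all, 6 members (1.43%, 95% CI 0.655 to 3.07%) had a microRNA gene within 500 bp, against 0.343% of the eligible sequence and 0.526% of background peaks. The replicate lists had 3 (0.732%) and 5 (1.16%), and the interval for replicate 1, 0.249 to 2.13%, holds both of those values.

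Other non-coding genes were common at the summits and pseudogenes were not. The class is intergenic with respect to protein-coding genes only. The summit lay inside an annotated ncRNA gene for 40 members (9.50%, 95% CI 7.06 to 12.7%), against 1.33% of the eligible sequence and 3.31% of background peaks, and the replicate lists gave 9.02% and 8.82%. Within 100 bp the count was 64 (15.2%), against 2.67% of the eligible sequence. A summit lay inside a pseudogene for 2 members (0.475%, 95% CI 0.130 to 1.72%), against 11.2% of the eligible sequence and 4.96% of background peaks, with replicate values of 0.732% and 0.464%. Taken as one class, annotated genes other than protein-coding, small RNA and piRNA genes lay within 100 bp of 74 members (17.6%) and of 16.0% of the eligible sequence, so the total hides opposite differences. A lincRNA gene lay within 100 bp of 4 members (0.950%) and of 0.827% of the eligible sequence, and a piRNA gene within 100 bp of 2 members (0.475%) and of 5.06%.

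Members were spread over arms and centres of every autosome, and were denser in the centres. The centre is taken here as the stretch from 25% to 75% of the length of each chromosome, and the rest as arms. They held 185 members (43.9%, 95% CI 39.3 to 48.7%), against 44.6% of all optimal peaks, so the share did not set the members apart from the list. Arms held 52.7% of the eligible sequence, 42.1% of background peaks and 44.3% of autosomal gene starts, and the replicate lists gave 44.9% and 44.3%. Per megabase of eligible sequence there were 15.2 members in arms and 21.6 in centres. The centre was denser on each of the 5 autosomes, from 12.7 against 9.16 per Mb on chromosome V to 36.3 against 25.8 on chromosome III. Chromosomes differed more than arms and centres did. Chromosome III held 103 members, or 31.1 per eligible Mb, chromosome I 91 (27.0), chromosome II 72 (16.6), chromosome IV 86 (14.9) and chromosome V 69 (10.9). Median distance to the nearest start was 1573 bp in arms and 1525 bp in centres, and median signal 53.2 and 50.5. Among strong members the arm share was nearer to that of the eligible sequence. Of the 176 in the stronger part of the list 50.6% lay in arms, and of the strongest 105 members 51.4%, against 52.7% of the eligible sequence.

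**Figure D4:**
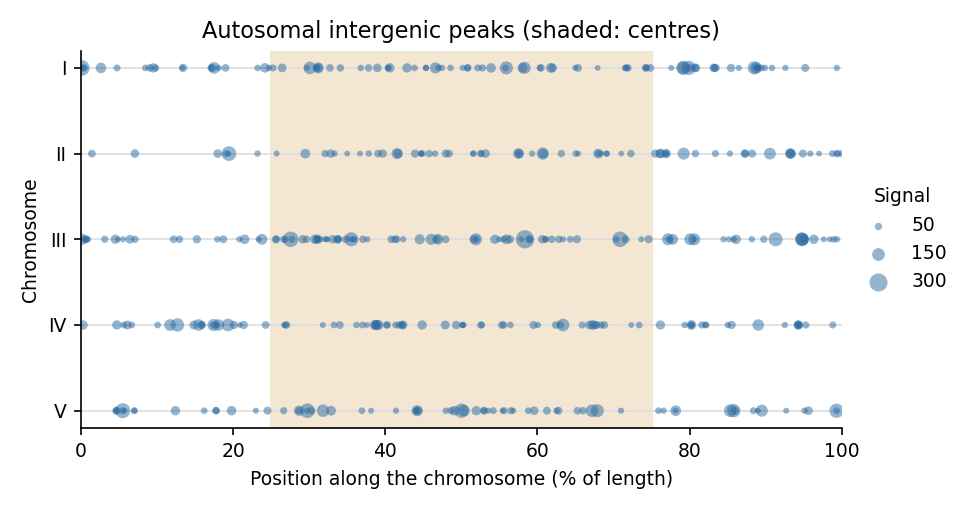
Position of each member along its autosome (horizontal, % of chromosome length), with point area in proportion to signal and the centre of each chromosome shaded. Members occur along all 5 autosomes, with 236 in the centres and 185 in the arms.

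The DNA at the summits was rich in GC and in 2 short elements. Over the 101 bp centred on the summit the median GC content was 48.5%, with quartiles of 43.6% and 53.5%, against 33.7% for windows of the same length tiled over the eligible sequence and 32.7% for windows 300 bp to either side of the summits. All optimal peaks also had a median of 48.5%. GAGAGA, searched on both strands, was present in 222 members (52.7%, 95% CI 48.0 to 57.5%), against 30.3% of all optimal peaks. It was present in 20.5% of autosomal peaks at gene starts, 42.7% of those in gene bodies, 12.6% of those at small RNA genes, 11.8% of background peaks, 8.79% of the flanking windows and 5.54% of eligible windows. The replicate lists gave 50.5% and 45.7%, a spread smaller than the distance from peaks at gene starts. The interval for gene-body peaks, 37.0 to 48.6%, overlapped that of the members slightly, and the difference between these classes was not tested. Peaks on X that meet the same rule, 156 in all, held GAGAGA in 27.6% (95% CI 21.2 to 35.1%), below the pooled autosomal members and outside their interval. The autosomes differed, however. Among centre members the share was 59.2%, 34.1%, 44.3%, 56.5% and 30.8% on chromosomes I to V, and those of II and V lie within the X interval. Among arm members it was lowest on chromosome II, at 38.7%. On X, peaks at gene starts held it in 35.9% (28.5 to 43.9%), so the autosomal excess over gene starts was not seen there.

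The 8-base element AGACGCAG, or CTGCGTCT on the other strand, was chosen after the windows had been seen. It was present in 99 members (23.5%, 95% CI 19.7 to 27.8%), against 14.3% of all optimal peaks, with replicate values of 22.2% and 20.9%. It was present in 25.5% of autosomal gene-body peaks, 11.1% of peaks at gene starts, 10.9% of X intergenic peaks, 2.58% of background peaks, 0.594% of flanking windows and 0.665% of eligible windows. CGTCTC, which can share 5 of its bases with the 8-base element, was present in 38.5% of members, 23.8% of all optimal peaks, 33.6% of autosomal gene-body peaks and 2.56% of eligible windows. CGCAGA, which can share 5 as well, was present in 33.0%, 19.6%, 30.3% and 2.25%. Both were also chosen after the windows had been seen. The nearest GAGAGA lay a median of 16 bp from the summit and the nearest AGACGCAG 21.5 bp. The 8-base element was on the strand of the gene with the nearest start in 40 members, on the opposite strand in 57 and on both in 2.

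**Figure D5:**
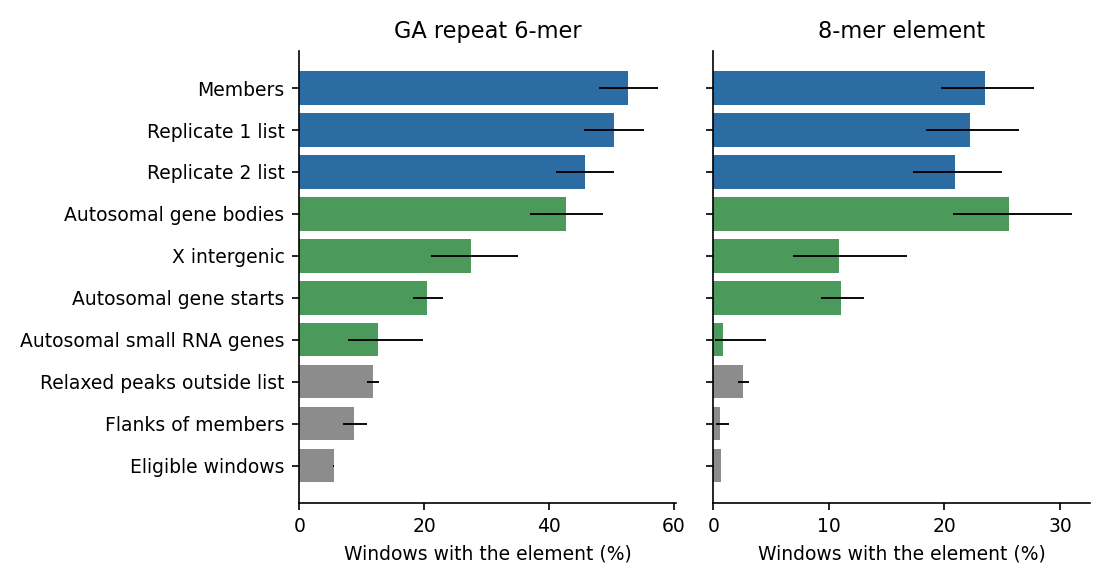
Share of 101 bp windows (horizontal, %) with the GA repeat 6-mer (left) and the 8-mer element (right) in members and replicate lists (blue), other classes of optimal peak (green) and comparison sequence (grey). Error bars are 95% Wilson intervals; members hold the GA element in 52.7% and eligible windows in 5.54%.

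Other 6-base words differed from eligible windows in both directions, but mostly lay close to the optimal list as a whole. TAATTA, which holds the TAAT core, was present in 2 members (0.475%, 95% CI 0.130 to 1.72%), against 5.12% of eligible windows, 4.71% of background peaks and 1.02% of all optimal peaks. TGATAA, which reads TTATCA on the other strand and holds the core of GATA factor sites, was present in 1.90% of members, 9.18% of eligible windows and 1.88% of all optimal peaks, and AAAAAA in 18.5%, 45.8% and 20.6%. In the same order, GTGTGT was present in 15.7%, 3.71% and 13.3%, CACGTG, an E-box, in 3.33%, 1.41% and 3.28%, and TTCCCG in 4.51%, 4.29% and 5.29%. GCGCGC was present in 4.99% of members, above the 0.747% of eligible windows and below the 9.29% of all optimal peaks. GC content moves with these shares. In a comparison added after the data were seen, among windows with a GC content between the members' quartiles, GAGAGA was present in 136 of 247 members (55.1%), 26.0% of background peaks and 11.0% of eligible windows, and AGACGCAG in 25.5%, 7.13% and 2.19%. TGATAA was present there in 1.21% (95% CI 0.414 to 3.51%) of members, 4.06% of background peaks and 4.17% of eligible windows. TAATTA was present there in 2 members (0.810%, 95% CI 0.222 to 2.90%) and in 1.49% of eligible windows, which lies within the interval. Within this range the difference in TAATTA was therefore not detectable with this number of members. GC content was not matched inside the range, and the upper quartile of all eligible windows, 39.6%, lay below it. The comparisons in this range are therefore not at equal GC.

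Members divided by these elements, again after the data were seen, differed in place. Both elements were present in 66 members, GAGAGA alone in 156, the 8-base element alone in 33 and neither in 166. Of members with both, 68.2% lay in arms, against 33.7% of those with neither. Put the other way, GAGAGA was present in 61.6% (95% CI 54.4 to 68.3%) of arm members and 45.8% (39.5 to 52.1%) of centre members, and the arm share was the higher on each of the 5 autosomes. Replicate 1 gave 56.5% and 45.6%, with intervals that overlap, and replicate 2 gave 56.0% and 37.5%. The eligible windows went the other way, with 4.85% in arms and 6.32% in centres. AGACGCAG was present in 32.4% of arm and 16.5% of centre members, with replicate values of 31.0% and 15.0%, and 29.3% and 14.2%, and here the eligible windows also held more in arms, 0.831% against 0.481%. By signal, GAGAGA was present in 61.0% of the strongest 105 members and 44.8% of the weakest 105. By distance it was present in 42.0% of members within 1000 bp of a start and 60.7% of those beyond 4000 bp.

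Longer GA repeats were present in some members. A run of at least 10 bases of alternating G and A was present in 54 members (12.8%), and the longest measured 71 bases, against a median longest run of 6. Median signal was 53.2 in members with GAGAGA and 48.2 in those without, and 73.0% and 63.8% of them were found in both replicates. Nothing in the labels says how reads from repeats were placed.

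The genes next to members were varied. The members had 394 different genes as their nearest start, and 24 genes were nearest to more than 1 member. Of the members, 40 (9.50%) had a nearest gene that also carried an optimal summit within 500 bp of its start. Of the 17242 autosomal protein-coding genes 8.57% did, a share that does not allow for the space around each gene, so the values are not directly comparable. Counts per gene family are set beside the share of eligible sequence with such a gene nearest, since families differ in how much space surrounds them. Nuclear hormone receptor genes were nearest to 9 members (2.14%), against 1.94% of the eligible sequence, with nhr-20 (signal 82.0, 4623 bp upstream) and nhr-10 (64.0, 1419 bp upstream) next after nhr-88. Chemoreceptor genes, a large family mostly expressed in sensory neurons, were nearest to 4 members (0.950%), against 7.09% of the eligible sequence. F-box genes and C-type lectin genes were nearest to 0 of 421 members, which allows a share of up to 0.713% by a limit of 3 counts and 0.904% by the Wilson interval, against 1.62% and 0.960% of the eligible sequence.

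Counts in the other lists were small. Homeobox genes were nearest to 2 members (0.475%), against 1.04% of the eligible sequence. These were ceh-48, a ONECUT gene, with a signal of 80.3 at 2146 bp upstream and ranks of 882 and 558, and ceh-43, the Distal-less homolog, with a signal of 32.6 and ranks of 2368 and 3263. Of the 6 autosomal heterochronic genes on the list, which time larval development, lin-41 had a member 1565 bp upstream with a signal of 70.4 and ranks of 818 and 888, and lin-28, which encodes an RNA-binding protein, had one 547 bp upstream with a signal of 41.8 that ranked 5803 and 1042. These 2 members are 0.475% of all, against 0.0676% of the eligible sequence. The T-box gene tbx-33 and the bHLH-PAS gene hif-1 were each nearest to the 1 member of their lists (0.238%), against 0.320% of the eligible sequence for T-box and GATA factors and 0.470% for bHLH factors. Cytosolic ribosomal protein genes were nearest to 2 members, against 0.228% of the eligible sequence. These were rps-25 and rps-6, neither found in the strongest peaks of both replicates. Cuticle collagen genes were nearest to 2, dpy-10 and col-108, against 0.711% of the eligible sequence. Neuropeptide genes were nearest to 1, nlp-40, against 1.26%, histone genes to 1, his-72, against 0.127%, and heat shock and DnaJ genes to 1, dnj-5, against 0.163%. With 1 or 2 members a list, these differences were not resolved.

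Some intervals held several members. The 421 members lay in 380 intervals, of which 348 held 1, 25 held 2 and 7 held 3 or more. The divergent interval between F54F12.1 and Y39E4B.6, 15313 bp long, held 3 members with signals of 180.6, 156.1 and 131.5, all found in both replicates. In the interval upstream of gpb-1, which encodes a G protein beta subunit, 3 members had signals of 83.3, 40.0 and 44.1, and the first and second shared a replicate 1 peak, ranked 604. Near sup-26, an RNA-binding protein gene, 2 of 3 members shared the replicate peaks ranked 708 and 442, and the third, with a signal of 36.2, had no replicate 1 peak. The intervals between sri-5 and ztf-6 and between sqv-6 and Y50D4C.12 each held 3 members, of which 1 each was found in both replicates.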

How the data were processed

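The deposited files were lists of ChIP-seq peaks. Per the file headers and labels, each replicate and the pool of both had a relaxed list, called relative to a control alignment, and the optimal list was drawn from these by irreproducible discovery rate. The signal of each peak is the value the authors deposited, and it was used only within one list. The ce10 lists were not used. The sources used here name no aligner, peak caller or threshold. Peaks were placed on WBcel235 with Ensembl release 115 genes, with Python 3.11.15, numpy 2.4.6, pandas 2.3.3 and scipy 1.17.1. Overlap means at least 1 bp. The distance and rule functions were tested on simulated peaks. Named items were the 20 strongest members, the 5 farthest from a start, those near microRNA genes, those at the 500 bp limit, runs of neighbouring members, intervals with 3 or more members (added after the values were seen) and up to 3 per gene list (13 lists). The members, gene lists and words were chosen with earlier results of these data known. The labels call the samples biological replicates. One interval with several members is not reported here.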

Additional observations from a re-analysis of the deposited data

How the results depend on the processing

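The class is set by its distance limit. With a limit of 250 bp it held 665 members, with a median distance of 820 bp and 73.1% in both replicates. With 1000 bp the median distance was 2131.5 bp and 80.1% lay upstream. In the stronger part of the optimal list it held 176 members, 50.6% of them in arms and 99.4% in both replicates. The latter share is tied to signal, because the optimal list was derived from both replicates. The cause of the arm share was not tested. With a narrower centre, 1 of 3 equal lengths of each chromosome, 62.0% lay in arms, against 68.9% of the eligible sequence. Other annotated genes lay at 11.2% of summits within 0 bp and 27.6% within 500 bp. With 25 bp on either side of the summit GAGAGA was present in 32.1% and the 8-base element in 13.1%. With 100 bp the shares were 72.4% and 33.5%, with a median GC content of 46.8%. A longer window holds any word more often, and no comparison shares are given at these lengths. Leaving out one replicate gave 410 to 431 members, median distances of 1523 to 1595 bp, 44.3 to 44.9% in arms, 86.5 to 87.1% upstream, 45.7 to 50.5% with GAGAGA and 20.9 to 22.2% with the 8-base element. Using transcript starts gave 421 members, but this could change only summits past a gene end, because the added starts lie inside gene bodies. Small RNA limits of 0 and 500 bp gave 464 and 415 members, and keeping summits away from every annotated gene except piRNA genes gave 306. The alternatives for the 8-base element, those for the upstream share and the GAGAGA values without one replicate were chosen after seeing the data. No paired analysis was possible because there was 1 group. Depth is unknown, so the number of peaks limits the precision.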
